A study of Homo sapiens with 12 samples.

Results

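SR proteins, hnRNPs and the kinases that act on SR proteins were followed in H1299 cells grown at 21% or 60% oxygen. Members were taken by gene symbol alone: the SRSF genes, TRA2A and TRA2B, the HNRNP genes, PTBP1, PTBP2 and PTBP3, RBFOX2, the CLK genes and the SRPK genes. The name rule uses no measured value, but it was chosen with earlier results of these data known. It gave 50 of the 59577 genes of the deposited table, namely 12 SR proteins, 2 TRA2 proteins, 25 hnRNPs, 3 PTB proteins, RBFOX2, 4 CLK kinases and 3 SRPK kinases. A further 124 pseudogenes fitted the name pattern and were left out.

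SR proteins bind exonic sequences of a pre-mRNA through their RNA recognition motifs and recruit the spliceosome through a domain rich in arginine and serine, so that they mostly favour inclusion of an exon. Many hnRNPs coat the nascent transcript and often have the opposite effect, and the balance of the opposing groups sets the choice of many alternative exons. SRPK kinases phosphorylate SR proteins in the cytoplasm for import, and CLK kinases phosphorylate them further in the nucleus, which releases them from nuclear speckles. Many SR and hnRNP genes also make transcripts that are degraded by nonsense-mediated decay, by which the proteins limit their own levels.

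H1299 is an established line from a human non-small cell lung carcinoma that lacks p53, and the labels call it lung adenocarcinoma. The normoxia group (n = 6) was kept in 21% O2 with 74% nitrogen, the hyperoxia group (n = 6) in 60% O2 with 35% nitrogen for 24 h, and both gas mixtures held 5% CO2. No other treatment and no genetic change was named, and all samples came from the 1 line. It is not stated whether the 6 samples per group were cultured apart. The p-values therefore cover the spread among the samples at hand, and this spread could be technical. Each value is a TPM, a transcript abundance per length scaled to a common total, and the 12 samples summed to between 996138 and 998797 TPM. Read depth cannot be recovered from TPM and is unknown. Between 14275 and 14635 genes per sample reached 1 TPM. VIM, KRT8 and KRT18, which the line is known to express, had normoxia means of 3351, 603.5 and 955.3 TPM. EPCAM, CDH1, KRT19, NKX2-1, SFTPB, SFTPC and NAPSA, of the same list of epithelial and lung carcinoma markers, were under 1 TPM in both group means. Of 11 markers of blood, endothelial, stromal and liver cells, only COL1A1 reached 1 TPM in a group mean (1.17 TPM in normoxia). The normoxia samples spread widely along the first principal component, which held 20.7% of the variance. Normoxia replicates 4 to 6 lay at -33.3 to -18.7, normoxia replicates 1 to 3 at -9.44 to -5.12 and the hyperoxia samples at 11.3 to 19.8. The oxygen groups were thus apart on this component, with normoxia replicates 4 to 6 farthest from hyperoxia. Counts and called members are therefore also given without normoxia replicates 4 to 6.

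The comparison asks which of these splicing regulators differ in RNA level after a day of supplemental oxygen. SRSF1 and SRSF3 fell most among the members that passed the test, HNRNPA0, HNRNPA1, HNRNPA2B1 and HNRNPA3 fell by less, and the kinases CLK1 and CLK3 rose with the SR gene SRSF5. Of the 50 members, 44 had a mean of at least 1 TPM over the 12 samples and were tested with limma on log2(TPM + 1), with Benjamini-Hochberg adjustment over 14520 genes. At an adjusted p under 0.05, 16 passed, 3 higher and 13 lower in hyperoxia. This is 36.4% of the tested members, where 17.3% of all tested genes passed. The higher members made up 6.82% against 11.7% of all tested genes, and the lower members 29.5% against 5.63%. The values of the groups did not overlap for 10 members with hyperoxia below (22.7% against 2.58% of all tested genes) and for 2 with hyperoxia above (4.55% against 6.2%). The median log2 change was -0.06 over the members and 0.03 over all tested genes. No test was made over the members as a list. Their shares were not compared with those of genes of like level. The SE was 0.03 for HNRNPA1, the most abundant member, and 0.16 for HNRNPA1L2, the lowest tested.

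Added together, the 50 members held 12650 to 13100 TPM in the normoxia samples (median 12880) and 11820 to 12320 in the hyperoxia samples (median 11970). HnRNPs gave most of that total, with medians of 9814 and 9083 TPM, and SR proteins gave 2174 and 2011. The sum of the CLK kinases went the other way, from a median of 112.1 to 135.6 TPM. It ran from 108.6 to 124.7 TPM in normoxia and from 123.6 to 138.1 in hyperoxia, so the groups overlapped. These sums are descriptions and were not tested. In RNA from whole cultures, less of a transcript in each cell and fewer cells that carry it cannot be told apart.

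Of all calls, 67.5% were higher in hyperoxia, a share that was 50.7% with TMM factors, 50% with median-of-ratios scaling and 54.3% with quantile normalisation. With TMM factors 3 members were higher and 15 lower, where 8.99% and 8.75% of all tested genes passed. With median-of-ratios scaling the members were 3 and 14 against 8.81% and 8.79%, and with quantile normalisation 3 and 13 against 9.9% and 8.32%. Without normoxia replicates 4 to 6, 3 members were higher and 8 lower, where 6.76% and 2.58% of the tested genes passed in those directions. Without normoxia replicates 1 to 3 these numbers were 2 and 10 members, against 5.35% and 3.11%.

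**Figure D1:**
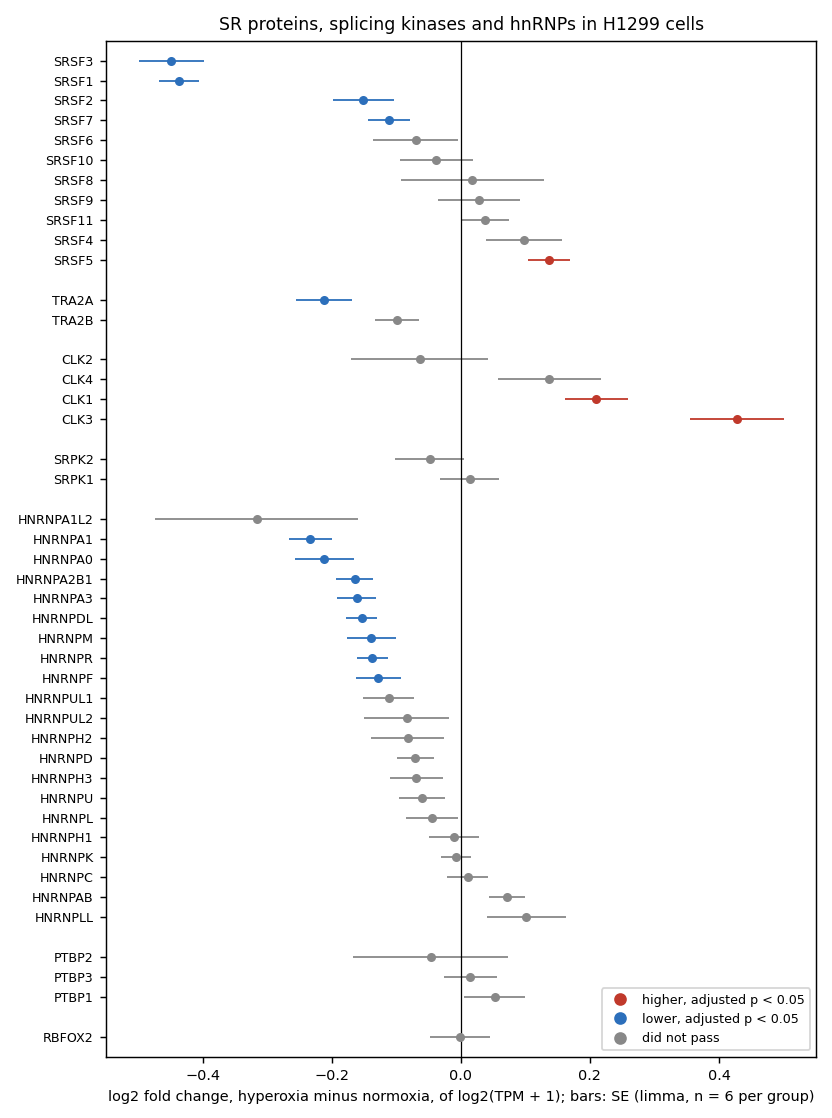
Log2 fold change (hyperoxia minus normoxia, of log2(TPM + 1)) of the 44 tested members on the horizontal axis, 1 row per gene grouped by family, with bars of 1 SE from limma (n = 6 per group). SRSF3 and SRSF1 lie farthest to the left at -0.45 and -0.44 and CLK3 farthest to the right at 0.43; blue and red mark the 13 lower and 3 higher genes.

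SR proteins differed among themselves in direction. Of 12, 11 were tested, 4 passed as lower (SRSF1, SRSF2, SRSF3 and SRSF7), 1 as higher (SRSF5) and 6 did not pass. Over all tested genes, 5.63% passed as lower and 11.7% as higher. SRSF1 (ENSG00000136450), the founding SR protein and an oncogene when overexpressed, measured 266.8 to 286.0 TPM in normoxia (median 274.1) and 196.0 to 215.7 in hyperoxia (median 200.4). Every hyperoxia sample was below every normoxia sample. Its log2 change was -0.44 (SE 0.03, limma adjusted p = 1.28e-06, n = 6 per group), the smallest adjusted p of the members. SRSF3 (ENSG00000112081), the smallest SR protein and an adaptor of mRNA export, measured 271.8 to 336.2 TPM in normoxia (median 326.1) and 216.5 to 246.4 in hyperoxia (median 234.4). The groups again did not overlap, although 1 normoxia sample, replicate 6, lay well below the other 5. Its log2 change was -0.45 (SE 0.05, limma adjusted p = 7.89e-05).

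SRSF1 and SRSF3 lost neither their call nor their direction in any of 24 other settings, with log2 changes of -0.47 to -0.43 and of -0.49 to -0.40. Part of the reads of SRSF1 may belong to AC015813.2, a gene that GENCODE places on the same strand over SRSF1 exons. AC015813.2 rose from 39.6 ± 4.89 TPM to 49.4 ± 2.12 TPM (SD, n = 6 each; log2 change 0.32, limma adjusted p = 0.00716). With both added together, the samples ran from 302.3 to 330.9 TPM in normoxia and from 243.6 to 267.8 in hyperoxia, a log2 ratio of the means of -0.32. The groups thus did not overlap in the sum either.

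SRSF5 (ENSG00000100650), an SR protein whose RNA is known to respond to growth signals such as insulin, rose. Its samples held 286.4 to 322.7 TPM in normoxia (median 313.5) and 323.2 to 353.5 in hyperoxia (median 345.0), with a log2 change of 0.14 (SE 0.03, limma adjusted p = 0.0122). The groups just missed each other, by less than 1 TPM. Over the 24 other settings its adjusted p ran from 0.00968 to 0.0889, and the call was lost only without normoxia replicates 1 to 3.

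SRSF2, which stays in the nucleus and is mutated in myeloid disease, was the most abundant SR gene. It measured 367.5 to 461.4 TPM in normoxia (median 387.3) and 345.4 to 378.1 in hyperoxia (median 358.1), with a log2 change of -0.15 (SE 0.05, limma adjusted p = 0.0436). MFSD11, whose exons overlap SRSF2 on the opposite strand, had means of 14.8 and 15.5 TPM and did not pass. The SRSF2 groups overlapped, and normoxia replicate 4 was the highest at 461.4 TPM. The call was lost without any 1 of 9 samples, normoxia replicates 1, 2, 5 and 6 and hyperoxia replicates 1, 2, 3, 5 and 6, with adjusted p of 0.0513 to 0.0906. It was also lost with no filter on low values (0.108), with eBayes without trend (0.0761) and without normoxia replicates 4 to 6 (log2 change -0.08, adjusted p = 0.208; range over all settings 0.00949 to 0.208).

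SRSF7, an SR protein with a zinc knuckle that also acts in polyadenylation, measured 213.1 to 221.9 TPM in normoxia (median 216.7) and 189.6 to 214.6 in hyperoxia (median 203.8). Its log2 change was -0.11 (SE 0.03, limma adjusted p = 0.0315), and the groups overlapped by 1 hyperoxia sample, replicate 3. The call was lost without any 1 of 7 samples, normoxia replicates 2, 3, 4 and 5 and hyperoxia replicates 4, 5 and 6, with adjusted p of 0.052 to 0.0662. With all samples kept, it was lost with median-of-ratios scaling (0.0506), quantile normalisation (0.0546), no filter on low values (0.0533), eBayes without trend (0.0694) and the exact rank-sum test (0.0559). Without normoxia replicates 1 to 3 the adjusted p was 0.142, and without replicates 4 to 6 it was 0.151 (range over all settings 0.0158 to 0.151). SRSF7 thus lost its call in 14 of the 24 other settings, and its direction held in all of them.

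SRSF4, SRSF6, SRSF8, SRSF9, SRSF10 and SRSF11 did not pass. Their log2 changes ran from -0.07 (SRSF6, SE 0.07, limma adjusted p = 0.516) to 0.10 (SRSF4, SE 0.06, adjusted p = 0.29). SRSF4, with 64.5 to 87.2 TPM in normoxia and 73.8 to 80.2 in hyperoxia, passed as higher without normoxia replicate 6, its highest sample (adjusted p = 0.0255), and without normoxia replicates 4 to 6 (0.0264; range over all settings 0.0255 to 0.972). SRSF12 was too low to test, at 0.57 ± 0.11 TPM in normoxia and 0.69 ± 0.16 in hyperoxia (SD, n = 6 each).

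The TRA2 proteins are SR-like factors that bind GA-rich exonic enhancers. TRA2A measured 57.1 to 64.8 TPM in normoxia (median 59.7) and 47.7 to 54.2 in hyperoxia (median 52.6), with no overlap. It fell by 0.21 on the log2 scale (limma SE 0.04, adjusted p = 0.00519), and this call was kept in all 24 other settings. TRA2B, its closest relative and the more abundant of the pair, measured 206.6 to 226.5 TPM in normoxia (median 215.4) and 191.0 to 208.1 in hyperoxia (median 204.1). Its log2 change was -0.10 (SE 0.03, limma adjusted p = 0.0631), so it did not pass, and its adjusted p stayed above 0.05 in every setting (0.0528 to 0.276). Whether the changes of TRA2A and TRA2B differ from each other was not tested.

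The 250 bases before the RefSeq start sites of SRSF1, SRSF3 and SRSF5 are shown because SRSF1 and SRSF3 fell and SRSF5 rose, each with no overlap between the groups. They are from RefSeq on GRCh38.p14, 5' to 3' along the gene's strand: chr17:58007247-58007496 (minus strand) for SRSF1, chr6:36594112-36594361 (plus) for SRSF3 and chr14:69766892-69767141 (plus) for SRSF5. Capitals mark TGACG, the core of the ATF/CREB motif, or its reverse complement CGTCA.
SRSF1: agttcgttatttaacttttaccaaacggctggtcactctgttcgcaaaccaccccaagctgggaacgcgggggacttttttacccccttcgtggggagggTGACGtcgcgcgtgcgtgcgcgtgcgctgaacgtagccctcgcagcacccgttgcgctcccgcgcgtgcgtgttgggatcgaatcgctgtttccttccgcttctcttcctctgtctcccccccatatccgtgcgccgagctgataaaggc
SRSF3: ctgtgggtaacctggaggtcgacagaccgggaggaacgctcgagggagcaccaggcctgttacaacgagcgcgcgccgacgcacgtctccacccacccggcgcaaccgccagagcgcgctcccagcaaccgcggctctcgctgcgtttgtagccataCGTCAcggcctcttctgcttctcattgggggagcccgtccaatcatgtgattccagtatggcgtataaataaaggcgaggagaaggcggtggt
SRSF5: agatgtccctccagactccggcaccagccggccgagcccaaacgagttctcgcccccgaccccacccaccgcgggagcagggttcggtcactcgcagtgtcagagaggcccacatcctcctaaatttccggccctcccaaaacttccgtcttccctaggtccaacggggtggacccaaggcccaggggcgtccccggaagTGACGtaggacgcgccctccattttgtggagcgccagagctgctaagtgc
Each window holds 1 such match, whose first base lies 150 bases before the start site in SRSF1, 93 in SRSF3 and 50 in SRSF5. The 2 genes that fell and the 1 that rose therefore have these letters in common. Across the members, 40 of the 44 tested had a RefSeq window, and TGACG on either strand was in at least 1 window of 23 of them (57.5%), against 36.4% of 10053 tested genes.

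Of the other 7 motifs searched on both strands, CCAAT was in 50% of the members (42% of tested genes), GGGCGG in 75% (75.5%), CCGGAAG in 12.5% (19.7%), CACGTG in 20% (11.4%) and TATAAA in 15% (7.61%). TGACNNNGC, the core of the antioxidant response element, was in 20% of the members (15.8% of tested genes) and TGANTCA, the AP-1 element, in none of 40 (5.66%). TGACNNNGC shares bases with the capitals in the SRSF1 window. The motifs were chosen with earlier results of these data known. A match is a description of letters in the window, neither a bound site nor a cause, and the absence of a match says nothing about the factor.

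Of the 4 CLK kinases, all tested, CLK1 and CLK3 passed as higher, where 11.7% of all tested genes did. CLK2 and CLK4 did not pass. CLK3 (ENSG00000179335), a dual-specificity kinase of nuclear speckles, measured 32.7 to 40.0 TPM in normoxia (median 38.0) and 45.0 to 58.4 in hyperoxia (median 50.6). No hyperoxia sample was as low as any normoxia sample, but within hyperoxia the samples fell into a lower and an upper group of 3. Its log2 change was 0.43 (SE 0.07, limma adjusted p = 0.00166), the largest rise of the members, and it ran from 0.38 to 0.48 over the 24 other settings, with the call kept in each. EDC3, a decapping factor whose exons overlap CLK3 on the opposite strand, went from a mean of 18.6 to 19.6 TPM and did not pass (adjusted p = 0.475).

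CLK1 (ENSG00000013441), whose RNA is known to be held partly in the nucleus with retained introns, measured 34.8 to 40.5 TPM in normoxia (median 37.4) and 39.3 to 46.4 in hyperoxia (median 43.5). The groups overlapped only in normoxia replicate 1 and hyperoxia replicate 6. It rose by 0.21 on the log2 scale (limma SE 0.05, adjusted p = 0.0107). Without normoxia replicates 4 to 6 the change was 0.17 and did not pass (adjusted p = 0.105; range over all settings 0.00459 to 0.105).

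CLK4, the closest relative of CLK1, had 6.64 to 8.77 TPM in normoxia and 7.38 to 9.69 in hyperoxia, with a log2 change of 0.14 (SE 0.08, limma adjusted p = 0.269). CLK2 had 26.4 to 38.4 and 22.5 to 34.7 TPM, with a log2 change of -0.06 (SE 0.11, adjusted p = 0.737). Both overlapped widely between groups. The SRPK kinases, which prepare SR proteins for nuclear import, did not pass either. SRPK1 had medians of 61.5 TPM in normoxia and 62.2 in hyperoxia (log2 change 0.01, SE 0.05, adjusted p = 0.877), and SRPK2 medians of 24.8 and 23.8 (log2 change -0.05, SE 0.05, adjusted p = 0.589). SRPK3, a muscle kinase, was too low to test at 0.22 ± 0.13 and 0.14 ± 0.07 TPM (SD, n = 6 each).

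The windows before the start sites of CLK1 and CLK3 are shown beside those of the SR genes because these kinases rose while SRSF1 and SRSF3 fell. RefSeq lists 2 windows for each gene, and the first with a match is printed: chr2:200864659-200864908 (minus strand) for CLK1 and chr15:74615586-74615835 (plus) for CLK3, both on GRCh38.p14. Capitals again mark TGACG or its reverse complement.
CLK1: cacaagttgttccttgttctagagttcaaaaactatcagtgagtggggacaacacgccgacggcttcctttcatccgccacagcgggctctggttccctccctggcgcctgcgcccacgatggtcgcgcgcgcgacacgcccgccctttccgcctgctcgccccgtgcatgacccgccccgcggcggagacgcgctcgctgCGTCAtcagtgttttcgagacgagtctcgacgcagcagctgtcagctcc
CLK3: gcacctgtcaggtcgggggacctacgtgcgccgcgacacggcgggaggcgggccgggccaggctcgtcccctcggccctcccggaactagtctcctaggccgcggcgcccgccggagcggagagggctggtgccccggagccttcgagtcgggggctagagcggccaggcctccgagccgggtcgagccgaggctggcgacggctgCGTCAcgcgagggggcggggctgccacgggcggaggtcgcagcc
The match begins 49 bases before the start site in CLK1 and 44 in CLK3, close to the position in SRSF5 and nearer than in SRSF1 and SRSF3. In both kinase windows its bases are shared with a match to TGACNNNGC. The SRSF5 window also holds TGACNNNGC, at other bases than the capitals.

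**Figure D2:**
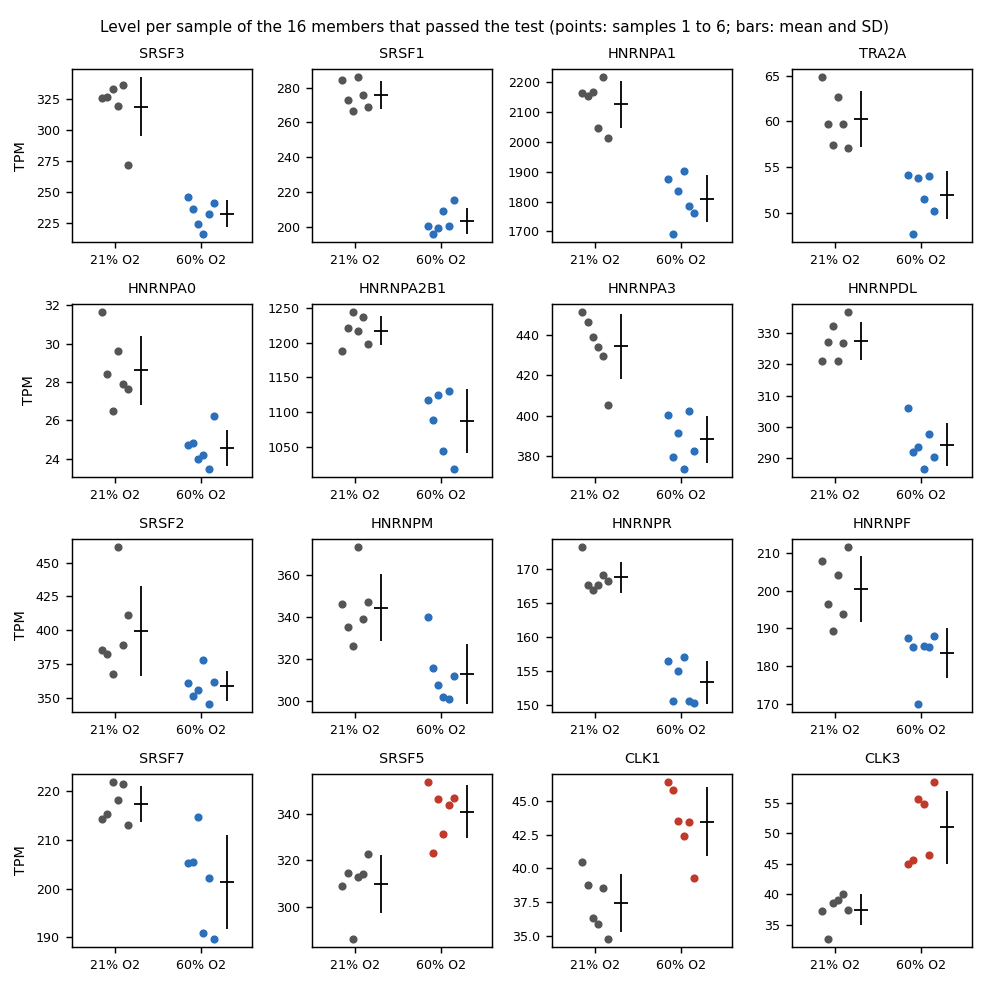
TPM per sample (vertical axis, a separate linear scale per gene that does not start at 0) of the 16 members that passed the test, with normoxia (21% O2) on the left, hyperoxia (60% O2) on the right and bars for mean and SD (n = 6). The groups are fully apart in 12 panels, while SRSF2, SRSF7, HNRNPM and CLK1 overlap.

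The hnRNPs leaned one way. Of 25, 21 were tested, 8 passed as lower (HNRNPA0, HNRNPA1, HNRNPA2B1, HNRNPA3, HNRNPDL, HNRNPF, HNRNPM and HNRNPR), none as higher, and 13 did not pass. Over all tested genes, 5.63% passed as lower and 11.7% as higher. The log2 change was below 0 for 18 of the 21, and for 19 with TMM factors, median-of-ratios scaling or quantile normalisation. In the main fit it was below 0 for 6224 of all 14520 tested genes. The median log2 change of the hnRNPs was -0.08, against 0.03 over all tested genes. Above 0, 1 hnRNP (HNRNPAB) was under 0.05 by the unadjusted limma p, and the exact rank-sum test called none as higher. Without normoxia replicates 4 to 6, 5 of the 8 still passed.

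The A group, compact proteins with paired RNA recognition motifs and a glycine-rich tail, gave 4 of the 8. HNRNPA1 (ENSG00000135486), which opposes SRSF1 in the choice of splice sites, was the most abundant member. It measured 2013 to 2217 TPM in normoxia (median 2158) and 1691 to 1903 in hyperoxia (median 1811), with no overlap. It fell by 0.23 on the log2 scale (limma SE 0.03, adjusted p = 0.000502), and by 0.19 to 0.26 over the 24 other settings. HNRNPA1 has many near-identical processed pseudogenes, so its reads may be split among copies. The best covered of these, HNRNPA1P7, had means of 375.8 TPM in normoxia and 321.4 in hyperoxia and fell by 0.22 (adjusted p = 0.0286). HNRNPA1, HNRNPA1L2 and all HNRNPA1 pseudogenes together, 77 genes, held 2394 to 2618 TPM in normoxia and 2076 to 2245 in hyperoxia, a log2 ratio of the means of -0.23.

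HNRNPA2B1 (ENSG00000122566), the second most abundant member and known for sorting RNAs into neuronal processes and exosomes, measured 1189 to 1244 TPM in normoxia (median 1219) and 1018 to 1130 in hyperoxia (median 1103). CBX3, whose exons overlap it on the opposite strand, had means of 129.2 and 124.7 TPM and did not pass. The HNRNPA2B1 groups did not overlap, and it fell by 0.16 on the log2 scale (limma SE 0.03, adjusted p = 0.00204). HNRNPA3, a close relative, measured 405.4 to 451.3 TPM in normoxia (median 436.7) and 373.6 to 402.2 in hyperoxia (median 386.8). It fell by 0.16 as well (SE 0.03, limma adjusted p = 0.0033), a call that was lost without normoxia replicates 1 to 3 (-0.12, adjusted p = 0.0598; range over all settings 0.00144 to 0.0598).

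HNRNPA0, which binds AU-rich elements of inflammatory mRNAs, was far less abundant, at 26.5 to 31.6 TPM in normoxia (median 28.1) and 23.5 to 26.2 in hyperoxia (median 24.4). It fell by 0.21 on the log2 scale (limma SE 0.05, adjusted p = 0.0071) with no overlap, and without normoxia replicates 4 to 6 its adjusted p was 0.0502 (range 0.000767 to 0.0502). HNRNPA1L2, a retrocopy of HNRNPA1, held 2.97 to 5.26 TPM in normoxia and 1.62 to 3.70 in hyperoxia. Its log2 change of -0.32 (SE 0.16, limma adjusted p = 0.193) did not pass, and its reads cannot be kept apart from those of HNRNPA1 with certainty.

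HNRNPDL and HNRNPD are paralogs that bind AU-rich RNA, and HNRNPAB is their relative. HNRNPDL measured 321.0 to 336.8 TPM in normoxia (median 327.0) and 286.5 to 306.0 in hyperoxia (median 292.8), and it fell by 0.15 on the log2 scale (limma SE 0.02, adjusted p = 0.00101). Its groups were narrow and well apart, and the call was kept in all 24 other settings. HNRNPD, at medians of 526.6 and 505.3 TPM, had a log2 change of -0.07 (SE 0.03, adjusted p = 0.107). It passed as lower with each of the other scalings and without normoxia replicate 3 (adjusted p = 0.0425; range over all settings 0.0179 to 0.349). HNRNPAB, at medians of 347.0 and 363.1 TPM, had a log2 change of 0.07 (SE 0.03, adjusted p = 0.101).

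HNRNPR, an RNA-binding partner of the SMN protein in neurons, measured 166.8 to 173.2 TPM in normoxia (median 167.9) and 150.4 to 157.1 in hyperoxia (median 152.8). It fell by 0.14 on the log2 scale (limma SE 0.02, adjusted p = 0.00212) with no overlap, a call kept in all 24 other settings. HNRNPM, a regulator of exons in epithelial to mesenchymal transition, measured 326.0 to 373.4 TPM in normoxia (median 342.7) and 300.9 to 340.0 in hyperoxia (median 309.5). Its log2 change was -0.14 (SE 0.04, limma adjusted p = 0.0234), and hyperoxia replicate 1 lay within the normoxia range. The call was lost with eBayes without trend (adjusted p = 0.0507), no filter on low values (0.0522) and the exact rank-sum test (0.0799). It was also lost without hyperoxia replicate 5 (0.0543) and without normoxia replicates 4 to 6 (-0.10, adjusted p = 0.169; range 0.00418 to 0.169).

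HNRNPF and the HNRNPH genes bind runs of G. HNRNPF measured 189.2 to 211.6 TPM in normoxia (median 200.3) and 169.9 to 187.9 in hyperoxia (median 185.2), and it fell by 0.13 on the log2 scale (limma SE 0.04, adjusted p = 0.0254). The groups did not overlap, but the call was lost with eBayes without trend (adjusted p = 0.0534) and without normoxia replicate 1 (0.0537) or 6 (0.0538). It was also lost without normoxia replicates 1 to 3 (0.0585) and 4 to 6 (-0.11, adjusted p = 0.154; range 0.000846 to 0.154). HNRNPH1, HNRNPH2 and HNRNPH3 did not pass, with log2 changes of -0.01, -0.08 and -0.07 (limma adjusted p = 0.888, 0.357 and 0.285). HNRNPH2 shares exons with the readthrough gene RPL36A-HNRNPH2, which went from a mean of 305.3 to 220.2 TPM (log2 change -0.45, limma adjusted p = 0.0481). The sum of HNRNPH2 and that gene held 277.0 to 458.9 TPM in normoxia and 226.9 to 327.9 in hyperoxia, so the groups overlapped. The log2 ratio of the means of this sum was -0.40, which was not tested.

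HNRNPC, which binds uridine tracts and packages pre-mRNA, was the third most abundant member, with medians of 914.4 TPM in normoxia and 928.8 in hyperoxia (log2 change 0.01, SE 0.03, limma adjusted p = 0.862). HNRNPK, which binds C-rich RNA, had medians of 598.3 and 600.9 TPM (log2 change -0.01, SE 0.02, adjusted p = 0.873). Their sign changed with the scaling for HNRNPC and with the samples left out for both. HNRNPL and HNRNPLL, which bind CA repeats, had log2 changes of -0.04 (adjusted p = 0.49) and 0.10 (0.285).

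HNRNPU, a scaffold of nuclear chromatin, and its relatives HNRNPUL1 and HNRNPUL2 had log2 changes of -0.06, -0.11 and -0.08 (limma adjusted p = 0.271, 0.0694 and 0.426). HNRNPUL1, at medians of 509.5 and 469.0 TPM, passed as lower without normoxia replicate 3 (adjusted p = 0.0223) or hyperoxia replicate 4 (0.0452), and with median-of-ratios scaling (0.00392) and TMM factors (0.00422; range over all settings 0.00392 to 0.342). HNRNPUL2 shares exons with the readthrough gene HNRNPUL2-BSCL2, which went from a mean of 37.9 to 41.1 TPM (adjusted p = 0.0441). HNRNPCL1, HNRNPCL2 and HNRNPCL3, gene copies of HNRNPC, were listed at 0 in all 12 samples. HNRNPCL4 was listed at 0.03 TPM in 1 sample of each group and at 0 in the others.

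The PTB proteins repress exons near pyrimidine-rich tracts, and RBFOX2 promotes or represses exons according to where it binds. PTBP1, the form of most non-neuronal cells, measured 291.4 to 366.2 TPM in normoxia (median 329.5) and 329.1 to 358.5 in hyperoxia (median 342.4), with a log2 change of 0.05 (SE 0.05, limma adjusted p = 0.495). PTBP2, the neuronal form, and PTBP3 had medians of 8.72 and 37.9 TPM in normoxia and 7.94 and 37.8 in hyperoxia (limma adjusted p = 0.837 and 0.849). RBFOX2 measured 45.1 to 54.8 TPM in normoxia (median 48.6) and 47.5 to 51.3 in hyperoxia (median 49.2), with a log2 change of 0.00 (SE 0.05, adjusted p = 0.989). All of these overlapped between groups.

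In order of level over the 12 samples, HNRNPA1 (1968 TPM), HNRNPA2B1 (1152), HNRNPC (917.3), HNRNPH1 (635.9) and HNRNPK (603.5) led, and the first SR gene, SRSF2 (379.1), stood at rank 12. SR genes with a change in opposite directions had like levels, with SRSF5 at 325.4 TPM, SRSF3 at 275.8 and SRSF1 at 239.6. Both kinases that rose were at ranks 33 and 34, CLK3 at 44.2 and CLK1 at 40.5 TPM. Of 5 hnRNPs with the highest levels, 2 fell and 3 did not pass.

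GENCODE 29, matched by gene identifier, lists at least 1 transcript marked for nonsense-mediated decay in 32 of the 44 tested members (72.7%), against 44.4% of 11940 tested protein-coding genes. Transcripts with a retained intron are listed for 31 (70.5%), against 57.6%. All 3 members that rose have both kinds, and of the 13 that fell, 10 have the first and 9 the second. Of the 28 that did not pass, 19 have the first and 19 the second. SRSF7 has 6 transcripts marked for decay among 12, SRSF1 3 among 9, and CLK1 8 with a retained intron among 15. A gene's TPM adds these forms to the coding ones, so a shift between them was not measured here.

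Other genes of splicing were described by 7 lists, with 34 of 159 tested genes higher, 8 lower and a median log2 change of 0.08. Over all tested genes, 11.7% were higher and 5.63% lower. With TMM factors the numbers for the lists were 26 and 15, against 8.99% and 8.75% of all tested genes. Without normoxia replicates 4 to 6 they were 28 and 4, against 6.76% and 2.58%. The lower counts were thus near the shares over all tested genes. Among 22 SR-related coactivators and speckle proteins, 9 were higher and 1 lower (median 0.16), such as RSRP1 (0.45, SE 0.07, limma adjusted p = 0.000594), an arginine and serine rich protein of little known function, and RSRC2 (0.27, SE 0.04, adjusted p = 0.000549). Of 29 factors of the tri-snRNP, the NTC complex and the catalytic steps, 10 were higher and 1 lower (median 0.11), led by PRPF4 of the tri-snRNP (0.32, SE 0.04, limma adjusted p = 0.000298). Of 18 U2 snRNP and 3' splice site factors 5 were higher and none lower, among them SF3B2 (0.21, SE 0.04, adjusted p = 0.00257), with 0 lower by the unadjusted limma p and 0 by the exact rank-sum test. With TMM factors or median-of-ratios scaling, 3 of these 18 were higher and 1 lower. Of 18 core snRNP proteins 1 was higher, SNRNP27 (0.40, SE 0.06, limma adjusted p = 0.000948), and 1 lower. Of 12 other SR protein kinases, phosphatases and importers 2 were higher, neither of which passed without normoxia replicates 1 to 3, and of 15 nonsense-mediated decay factors 4 were higher, such as SMG5 (0.24, SE 0.04, limma adjusted p = 0.00283). With TMM factors, 7 of the 29 tri-snRNP, NTC and catalytic factors were higher and 2 lower. For the 12 kinases, phosphatases and importers these numbers were 2 and 1, and for the 15 decay factors 2 and 0.

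Only the list of other splicing regulators had a median below 0 among the 7 (-0.02), which turned to 0.01 without normoxia replicates 4 to 6. Of its 45 tested genes, 5 were lower and 3 higher, against 5.63% and 11.7% of all tested genes. With TMM factors 9 were lower and 2 higher, against 8.75% and 8.99%. SFPQ, a paraspeckle protein, fell from a median of 294.8 to 235.4 TPM (log2 change -0.30, SE 0.05, limma adjusted p = 0.00141). RBMX, which is also called hnRNP G, fell from 262.8 to 232.6 TPM (-0.19, SE 0.04, adjusted p = 0.00293). Whether any list differs from the members was not tested.

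**Figure D3:**
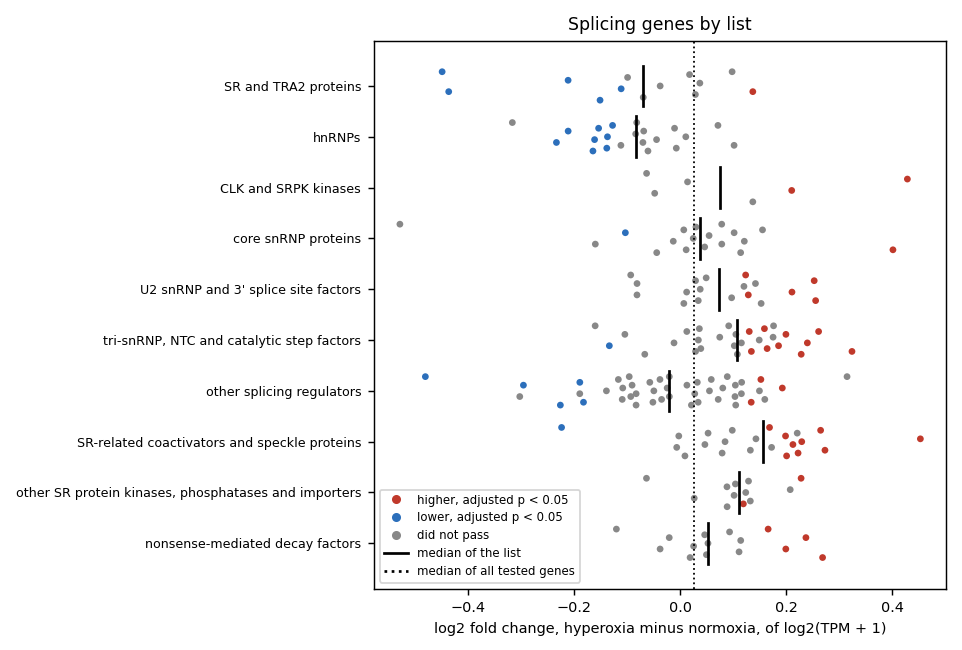
Log2 fold change (hyperoxia minus normoxia, of log2(TPM + 1), horizontal axis) of each tested gene, 1 point per gene, for the members in 3 groups and 7 lists of other splicing and decay genes. Short black lines mark each list's median and the dotted line the median of all tested genes (0.03); the medians of the SR and hnRNP rows lie to its left and that of the coactivator row (0.16) to its right, with single genes of each row on both sides.

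In the authors' deposited table, which holds their own test of the same samples, 23 of the 44 tested members had an adjusted p under 0.05, 4 higher and 19 lower, against 30% of the genes tested here. In the authors' deposited table these included all 16 members that passed here and 7 more, HNRNPUL1, TRA2B, HNRNPD, HNRNPL, SRSF4, HNRNPUL2 and PTBP2. None of the 50 members was among the 357 genes (1.1%) that the authors' deposited table calls changed. SRSF3 had a log2 fold change of -0.29 in the authors' deposited table, against -0.45 for the ratio of mean TPM in the same table. For CLK3 the authors' deposited table gave 0.33 against 0.44 by TPM, for PTBP2 -0.23 against -0.05, and for SRSF8 -0.11 against 0.01. These 4 of 44 were the members with a gap over 0.1 in the authors' deposited table, where 18.26% of 14446 genes had one.

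**Figure D4:**
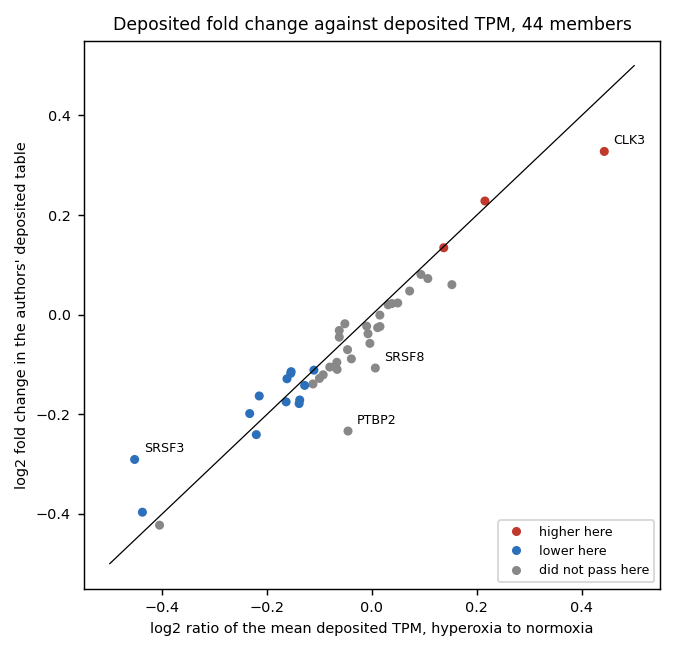
Log2 fold change of the 44 tested members in the authors' deposited table (vertical axis) against the log2 ratio of mean deposited TPM, hyperoxia to normoxia (horizontal axis), with the line of equality. Points are colored by the result of the limma test here, and the 4 labelled genes, among them SRSF3 (-0.29 against -0.45) and CLK3 (0.33 against 0.44), lie over 0.1 from the line.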

How the data were processed

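RNA of 12 samples of H1299 cells was sequenced, and groups came from the treatment labels. Per the file headers, the authors deposited TPM for each sample. HTSeq 0.9.1 gave the counts, and edgeR 3.16.5 served for normalisation and testing, per the submitters' processing notes. How TPM was computed, with which aligner and annotation, is not given in the sources used here. A mouse genome build is listed in these notes, although the identifiers are human. The labels name a TruSeq kit and the design text a directional kit after removal of ribosomal RNA. The library type, and whether reads keep their strand, is therefore not settled. For each gene the authors deposited a fold change as a ratio, the log2 of it, p-values before and after adjustment, and a call. In 75 genes, no member among them, these disagree with each other or with the deposited group means (tolerance 0.001 on log2 and 0.01 TPM). 1 row names no gene and was left out.

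Genes whose mean reached 1 TPM over the 12 samples (14520) were tested on log2(TPM + 1) with limma 3.58.1 in R 4.3.3 (lmFit, eBayes with trend, two-sided). A gene passed at a Benjamini-Hochberg adjusted p under 0.05 over all of them. Changes of low genes are understated on this scale. On simulated log2 values with 100 genes changed by each of 2 sizes, drawn independently per gene for the 14520 genes of this comparison, 67% of changes of 0.5 and 90% of changes of 1 were recovered, and 6.55% of calls were false. All members that passed changed by less than 0.5, so these rates do not cover their sizes. Fewer genes were changed in the simulation than passed in the data. TPM keeps no depth, so no counting interval is given.

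Other settings tried were pseudocount 0.1, no filter on low values, minimum mean 5 TPM, median-of-ratios scaling, TMM factors, quantile normalisation, eBayes without trend, robust eBayes, an exact rank-sum test over 924 arrangements, a block for the replicate number, and each sample left out in turn. Leaving out normoxia replicates 4 to 6 or 1 to 3 was added after seeing the data. Members follow the symbol rule, and every member may be named, with up to 3 genes of each other list by smallest p. Genes named beyond that (AC015813.2, HNRNPA1P7, EDC3, MFSD11, CBX3, RPL36A-HNRNPH2 and HNRNPUL2-BSCL2) were chosen for overlap or likeness after their values were seen. Members and lists were chosen with earlier results of these data known. Annotation came from GENCODE 29, which held all 50 members by identifier, and from RefSeq promoter windows on GRCh38.p14, which held 45 by symbol.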

Additional observations from a re-analysis of the deposited data

Results flagged for a closer look

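In 9 of 130 groups of 6 samples (65 genes in both groups), the gap between the most extreme sample and its neighbour, as a share of the range, was above Dixon's critical value, which chance passes in about 1 group of 20. In normoxia, SRSF3 was lowest in replicate 6 at 271.75 TPM, next to 319.5. CLK3 was lowest in normoxia replicate 2 at 32.67 TPM, next to 37.3. HNRNPR was highest in normoxia replicate 1 at 173.15 TPM, next to 169.1. Replicate 4 was the highest normoxia sample for SRSF10 at 93.92 TPM, next to 80.8, and for RBM22, a factor of the active spliceosome, at 45.73 TPM, next to 41.9. In hyperoxia, HNRNPF was lowest in replicate 3 at 169.92 TPM, next to 184.9, and HNRNPA1L2 lowest in replicate 4 at 1.62 TPM, next to 2.95. HNRNPH2 was highest in hyperoxia replicate 1 at 61.8 TPM, next to 53.5. SF3A1, a subunit of the U2 snRNP, was highest in hyperoxia replicate 4 at 69.01 TPM, next to 59.2. No cause was tested for these samples.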

How the results depend on the processing

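Of 16 members that passed, 8 passed in all 24 alternatives (SRSF1, SRSF3, TRA2A, CLK3, HNRNPA1, HNRNPA2B1, HNRNPDL and HNRNPR), and none of the 16 changed sign. HNRNPA1L2 gave no value at a minimum mean of 5 TPM. The number of genes called, 2516, was 1354 without normoxia replicates 4 to 6 and 1227 without replicates 1 to 3, fits with fewer samples, and 1958 to 2452 with 1 sample left out. Members lower, 13, were 9 with eBayes without trend, 10 with no filter on low values and 11 by the exact rank-sum test, all samples kept. They were 15 with TMM factors, 8 without normoxia replicates 4 to 6 and 10 to 14 with 1 sample left out. Members higher, 3, were 3 to 4 with 1 sample left out and 2 without normoxia replicates 1 to 3. Samples that share a replicate number did not deviate together (correlations of -0.117 to 0.0169). Samples of unlike number were not compared in this way, so whether the numbers pair samples was not settled. With the replicate block 2545 genes passed and the members were 3 higher and 14 lower, HNRNPUL1 being the one gained. Signs changed only for members that did not pass, on log2 values near 0, and the cause was not tested. With median-of-ratios scaling SRSF9 was at -0.002, PTBP3 -0.015, HNRNPC -0.02, SRPK1 -0.017 and SRSF8 -0.011. With TMM factors these were -0.00086, -0.014, -0.019, -0.015 and -0.01 for SRSF9, PTBP3, HNRNPC, SRPK1 and SRSF8. With quantile normalisation PTBP3 was at -0.022, HNRNPC -0.018, SRPK1 -0.025 and SRSF8 -0.0098. Without normoxia replicates 4 to 6 HNRNPL was at 0.0057, SRSF10 0.0042, SRSF9 -0.047, HNRNPK 0.014, SRPK1 -0.0026, SRSF8 -0.014 and RBFOX2 0.023. Without normoxia replicates 1 to 3 PTBP1 was at -0.027, PTBP2 0.059 and HNRNPC -0.00048. With 1 sample left out, the ranges that crossed 0 were -0.0057 to 0.03 for HNRNPC, -0.027 to 0.018 for HNRNPH1, -0.028 to 0.027 for RBFOX2, -0.068 to 0.082 for SRSF8, -0.063 to 0.0057 for SRSF10, -0.015 to 0.0038 for HNRNPK, -0.00075 to 0.08 for SRSF9, -0.006 to 0.03 for PTBP3, -0.014 to 0.032 for SRPK1, -0.12 to 0.024 for PTBP2 and -0.11 to 0.012 for CLK2. With no depth given, how far counting error limits low members such as CLK4, PTBP2 and HNRNPA1L2 is unknown.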
